A study of Homo sapiens with 4 samples.

Results

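Nuclear receptors are transcription factors that carry a DNA-binding domain and a pocket for a small lipid-soluble ligand. In the absence of ligand many of them sit on DNA with corepressors, and ligand exchanges these for coactivators. Several bind DNA as a pair with RXR, others (the REV-ERBs, ROR and NR4A receptors and the oestrogen-related receptors) can bind alone, and a number of them are orphan receptors with no agreed natural ligand. In the colon epithelium they are known for sensing vitamin D, retinoids, fatty acids, oxysterols and bile acids. The 41 genes described here are the members of the family other than the glucocorticoid receptor (GR) that were listed by symbol, and all 41 were found among the 61544 genes of the count table by their Ensembl identifiers.

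RNA was sequenced from HT29 and HCT116, established epithelial lines from human colorectal cancers. Each line gave 1 library after 24 h in 1 ug/mL lipopolysaccharide (LPS), a lipid from the outer wall of Gram-negative bacteria, and 1 control library without it. The 4 groups were HT29 LPS, HT29 control, HCT116 LPS and HCT116 control, and no culture was repeated. The design set the lines side by side because they differ in the basal expression of GR, and the GR gene NR3C1 had 0 counts in HT29 LPS and 1 in HT29 control, against 560 in HCT116 LPS and 615 in HCT116 control.

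Total counts ran from 19105058 to 21268959 per library, and the receptors took 0.155% to 0.163% of them. Mitochondrial transcripts took 4.29% of the counts in HT29 LPS and 3.75% in HT29 control, against 7.16% in HCT116 LPS and 5.01% in HCT116 control. The epithelial genes EPCAM, CDH1, KRT8, KRT18 and KRT19 had 1676 counts or more in every library, but the differentiated colon markers VIL1, LGALS4 and CEACAM5 were at 10 counts or fewer in each HCT116 library. The colon transcription factor CDX2 ran the other way, with 39 counts in HT29 LPS and 18 in HT29 control, against 572 in HCT116 LPS and 474 in HCT116 control. KRT20 was listed at 0 in all 4 libraries, but its transcript also aligned to an alternate contig at 100% identity, so this 0 cannot be read as absence. Of 8 leukocyte, 6 fibroblast and 4 endothelial markers, CD14 in HT29 (137 counts with LPS, 140 in control) and COL1A1 in HCT116 (1999 with LPS, 2225 in control) were the 2 with more than 100 counts in any library, and CD3E, TYROBP, COL1A2, DCN and CDH5 were at 0 in all. The summed leukocyte markers came to 7.96 CPM in HT29 LPS and 8.76 in HT29 control, against 2.32 in HCT116 LPS and 2.03 in HCT116 control, and the endothelial markers to 1.61 to 2.52 CPM in all libraries. The fibroblast markers summed to 4.03 CPM in HT29 LPS and 5.27 in HT29 control, against 98.7 in HCT116 LPS and 99.6 in HCT116 control. The part of these cell line differences in the receptor results was not tested.

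Of the 41 receptors, 36 had at least 1 count. The minimum for a test, a mean of 1 CPM (counts scaled to the library total) over the 4 libraries, was reached by 25. Another 11 had some counts below that minimum, and RORB, RXRB, RXRG, NR2E1 and PGR were listed at 0 in all 4 libraries. RORB is a ROR receptor of the nervous system, RXRB and RXRG are RXR partners, NR2E1 (TLX) is known from neural stem cells and PGR is the progesterone receptor. The transcript of RXRB aligned to 5 alternate contigs of the reference at 100% identity, so its 0 cannot be read as absence.

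Levels between genes were compared as TPM, a length-corrected abundance computed here from the counts and the gene lengths of the table. NR2F6 (EAR2), an orphan receptor of the COUP-TF group that represses transcription, had the highest TPM of the family in every library, at 397 in HT29 LPS and 436 in HT29 control, against 208 in HCT116 LPS and 236 in HCT116 control. Next in HT29 came the oestrogen-related receptor ESRRA, an orphan regulator of mitochondrial energy metabolism, with 183 TPM with LPS and 193 in control. In HCT116 the places after NR2F6 were held by NR2F1 (128 TPM with LPS and 138 in control) and NR2F2 (117 and 126 TPM in the LPS and control libraries). NR2F6 alone made up 32.2% of the summed receptor TPM in HT29 LPS and 34.3% in HT29 control, against 19.3% in HCT116 LPS and 21.2% in HCT116 control.

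**Figure D1:**
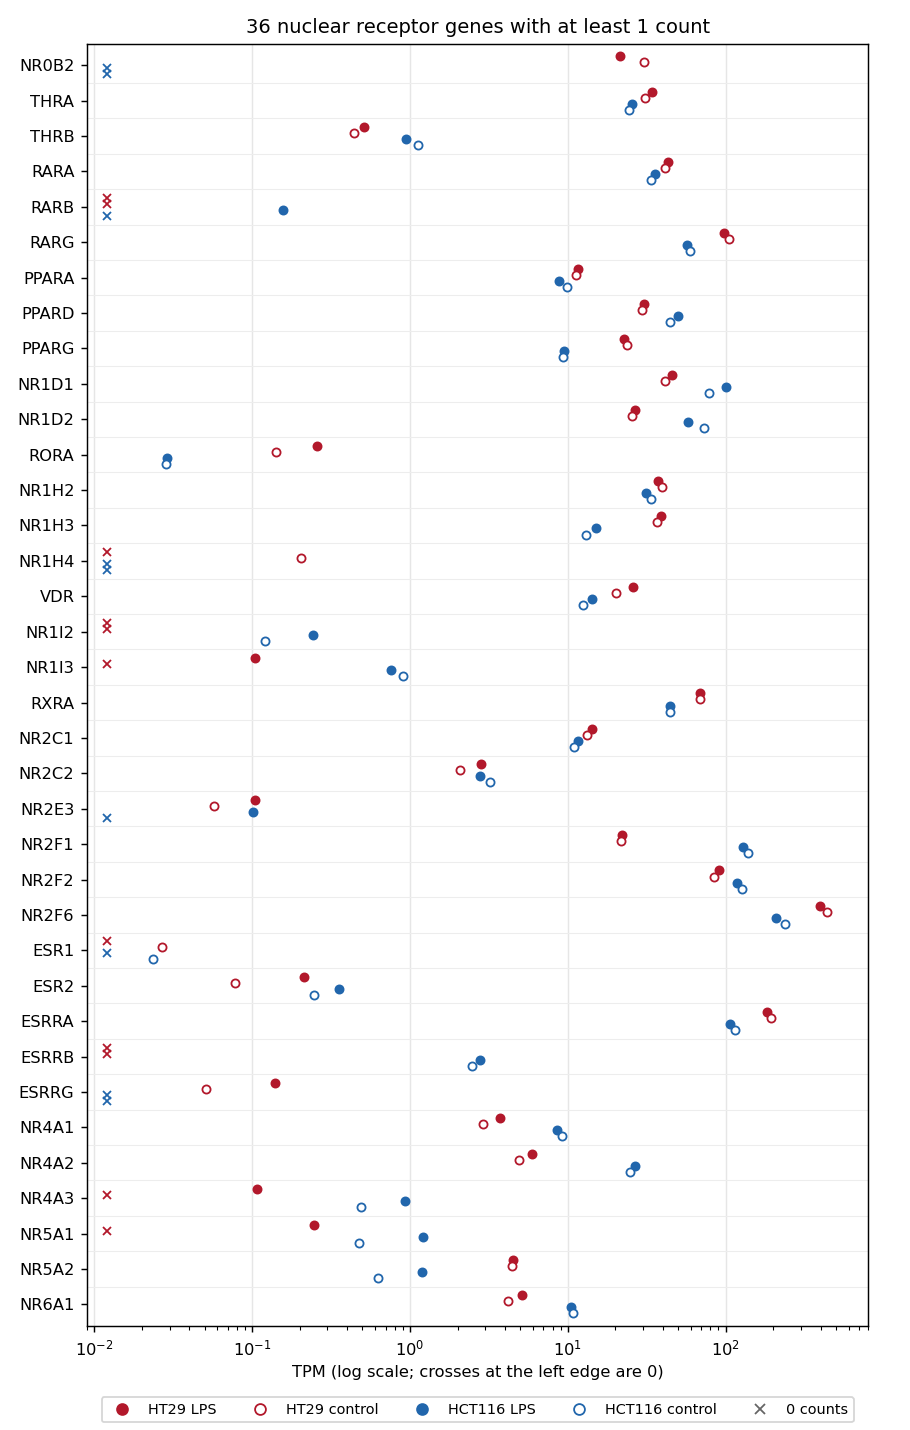
TPM of the 36 receptors with any count (log axis), with HT29 in red, HCT116 in blue, LPS libraries filled and control libraries open, and crosses for libraries at 0. The LPS and control points of a line mostly lie close together, while NR0B2 has no HCT116 point above 0 and ESRRB no HT29 point above 0.

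The first comparison asked where the lines differ, with the LPS and control libraries of a line used as its repeats in edgeR's quasi-likelihood test and LPS as a block. Of the 25 receptors tested, 14 were higher and 10 were lower in HT29 at an adjusted p under 0.05. Over all 14516 genes tested, 38% were called higher and 38.6% lower, so most genes separated the lines and a call alone says little about a receptor. The remaining receptor, NR2C2, was not called. With a log2 fold change beyond 1 required as well, a condition added after the data were seen, 4 receptors were higher (16.6% of all genes) and 7 were lower (23.3% of all genes). The median log2 fold change of HT29 over HCT116 was 0.35 over the 25 receptors and -0.02 over all genes. Setting NR0B2 and ESRRB, at 0 in a line, to their bounds could not move the receptor median, because each stayed on its side of it. In bulk RNA a lower count can come from fewer cells with the transcript or from less of it per cell, and these cannot be told apart. The fit had 1 residual degree of freedom, which is how far the line difference varied between the LPS and control libraries. Its p-values rest on that and on a spread estimated partly from other genes, not on repeat cultures. Scaling by library size alone would shift every log2 fold change of this comparison by -0.15.

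**Figure D2:**
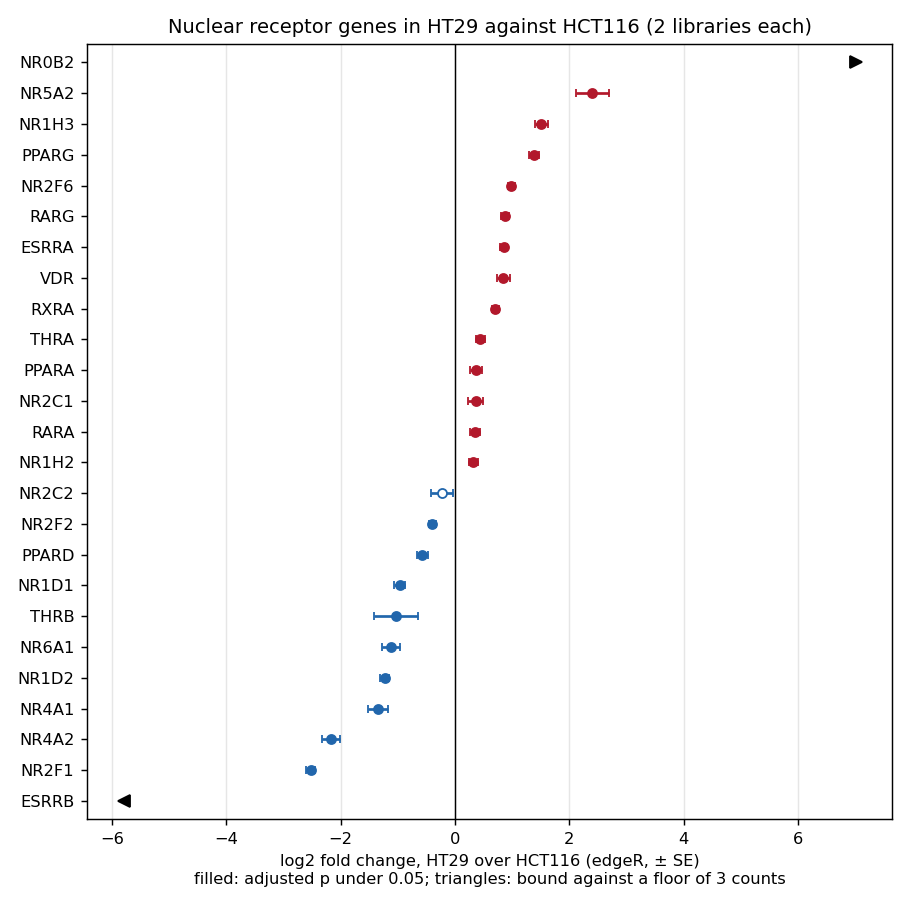
Log2 fold change of HT29 over HCT116 for the 25 tested receptors with standard errors, sorted from highest to lowest, where filled points passed an adjusted p of 0.05. Triangles are bounds for NR0B2 (7.01) and ESRRB (-5.80), which had 0 counts in both libraries of 1 line.

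Of the shared RXR partners RXRA alone had counts, but the 0 of RXRB cannot be read as absence. RXRA pairs with the thyroid hormone, retinoic acid, vitamin D, PPAR, LXR and FXR receptors. It had 4931 counts in HT29 LPS and 4452 in HT29 control, against 3251 in HCT116 LPS and 3312 in HCT116 control. Both HT29 libraries lay above both HCT116 libraries, with a log2 fold change of 0.71 ± 0.07 (SE) and an edgeR adjusted p of 4.91e-09.

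The retinoic acid receptors were present as RARG and RARA. RARG, the form known best from epithelia, had 2945 and 2919 counts in the LPS and control libraries of HT29, against 1784 and 1860 in those of HCT116. RARA had 1200 and 1050 counts in the LPS and control libraries of HT29, against 1028 and 980 in those of HCT116. The difference between the lines was larger for RARG, at a log2 fold change of 0.88 ± 0.07 (edgeR adjusted p = 6.12e-10), than for RARA, at 0.35 ± 0.09 (edgeR adjusted p = 9.89e-04), although these were not tested against each other. For RARA the call was lost without the HCT116 control library (edgeR adjusted p = 0.0562). RARG made up 69.4% of the summed TPM of the 3 retinoic acid receptors in HT29 LPS and 72% in HT29 control, against 61.5% in HCT116 LPS and 63.7% in HCT116 control.

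RARB, a retinoic acid receptor that is itself a target of retinoic acid, had 9 counts in HCT116 LPS and 0 in the other 3 libraries, too few for a test. Its start region holds the element through which RAR and RXR pairs are known to act on it, a direct repeat spaced by 5 bases. The site below lies at chr3:25428210-25428226 on the plus strand, 53 to 37 bases before the RefSeq start in GRCh38.p14, and the capitals mark the repeat arms.
RARB site: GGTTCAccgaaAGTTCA
The arms GGTTCA and AGTTCA with any 5 bases between them, searched on both strands because of that knowledge, were found in 6 of 35116 RefSeq windows of 300 bases (0.0171%). RARB was the only one of the receptors with them, but the arms searched were those of the RARB site itself, so its match is no test.

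The thyroid hormone receptors were nearly all THRA. It had 1477 and 1219 counts in the LPS and control libraries of HT29, against 1147 and 1108 in those of HCT116, and the HT29 libraries were higher by a log2 fold change of 0.44 ± 0.08 (edgeR adjusted p = 3.69e-05). THRB had 33 and 26 counts in the LPS and control libraries of HT29, against 63 and 76 in those of HCT116. The direction of THRB was opposite to that of THRA, at a log2 fold change of -1.04 ± 0.38 (edgeR adjusted p = 0.0192). This call was lost with DESeq2 (adjusted p = 0.0735) and, in edgeR, without the HCT116 control library (adjusted p = 0.0773). THRA held 98.5% of the TPM of the pair in HT29 LPS and 98.6% in HT29 control, against 96.5% in HCT116 LPS and 95.6% in HCT116 control.

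The PPARs are receptors for fatty acids. PPARG, known in the colon for its part in epithelial differentiation, had 1596 counts in HT29 LPS and 1543 in HT29 control, against 685 in HCT116 LPS and 686 in HCT116 control. Its log2 fold change was 1.39 ± 0.09 (edgeR adjusted p = 1.03e-11). PPARD, the broadly expressed form, ran the other way, with 805 and 705 counts in the LPS and control libraries of HT29, against 1351 and 1211 in those of HCT116 (log2 fold change -0.57 ± 0.09, edgeR adjusted p = 1.25e-05). PPARA, which directs fatty acid oxidation, had 903 and 800 counts in the LPS and control libraries of HT29, against 711 and 798 in those of HCT116. The PPARA call of 0.37 ± 0.10 on the log2 scale (edgeR adjusted p = 0.00239) rested on close counts, 800 in HT29 control against 798 in HCT116 control before scaling. It was lost when counts were scaled by library size alone (edgeR adjusted p = 0.0653). By TPM, PPARG made up 34.9% of the PPARs in HT29 LPS and 37.1% in HT29 control, against 13.8% in HCT116 LPS and 14.7% in HCT116 control.

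Of the oxysterol receptors, NR1H3 (LXR alpha) separated the lines and NR1H2 (LXR beta) differed less. NR1H3 had 1045 and 900 counts in the LPS and control libraries of HT29, against 417 and 364 in those of HCT116, a log2 fold change of 1.51 ± 0.11 (edgeR adjusted p = 1.84e-10). NR1H2 had 1175 and 1143 counts in the LPS and control libraries of HT29, against 1017 and 1110 in those of HCT116, a log2 fold change of 0.32 ± 0.08 (edgeR adjusted p = 0.00181). The NR1H2 call was lost with library size alone (edgeR adjusted p = 0.0849), and 22.1% of its exon bases lie in exons of NAPSA on the other strand. The share of NR1H3 in the LXR TPM was 51.2% in HT29 LPS and 48.1% in HT29 control, against 32.6% in HCT116 LPS and 27.9% in HCT116 control.

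NR0B2 (SHP, ENSG00000131910.5, chr1:26911489-26913975, minus strand of hg38) lacks a DNA-binding domain and represses other nuclear receptors, and in liver and gut it is induced by the bile acid receptor FXR. It had 147 counts in HT29 LPS and 192 in HT29 control, and 0 in both HCT116 libraries. Against a floor of 3 counts over the 2 HCT116 libraries it was at least 129-fold higher in HT29 (edgeR adjusted p = 7.13e-11). FXR itself (NR1H4) had 4 counts in HT29 control and 0 in HT29 LPS and both HCT116 libraries. NR0B2 was thus counted where its best known activator was nearly uncounted.

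The vitamin D receptor VDR had 861 counts in HT29 LPS and 618 in HT29 control, against 491 in HCT116 LPS and 438 in HCT116 control. The HT29 libraries were higher by a log2 fold change of 0.85 ± 0.11 (edgeR adjusted p = 1.16e-06). The xenobiotic sensors PXR (NR1I2) and CAR (NR1I3) were low. PXR had 0 counts in both HT29 libraries, against 8 in HCT116 LPS and 4 in HCT116 control. CAR had 2 and 0 counts in the LPS and control libraries of HT29, against 15 and 18 in those of HCT116, and 20.4% of its exon bases lie in exons of TOMM40L on the other strand.

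The REV-ERBs NR1D1 and NR1D2 are haem-binding repressors of the circadian clock that act against the RORs. NR1D1 (chr17:40092793-40100589, minus strand) had 705 counts in HT29 LPS and 586 in HT29 control, against 1620 in HCT116 LPS and 1269 in HCT116 control. NR1D2 (chr3:23945286-23980617, plus strand) had 908 counts in HT29 LPS and 803 in HT29 control, against 2030 in HCT116 LPS and 2600 in HCT116 control. Both were lower in HT29, by a log2 fold change of -0.97 ± 0.10 for NR1D1 (edgeR adjusted p = 1.79e-08) and -1.23 ± 0.08 for NR1D2 (edgeR adjusted p = 2e-11). NR1D1 shares 473 exon bases, 18% of its own, with the 3' end of THRA on the other strand. Reads there cannot be told apart by strand, because the library kit does not mark it. RORA, the activator at the same elements, had 26 and 13 counts in the LPS and control libraries of HT29, against 3 in each library of HCT116.

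The 250 bases before the RefSeq start of each REV-ERB gene (GRCh38.p14) are shown because both genes are known to be driven by the clock factors CLOCK and BMAL1 through E-boxes. Capitals mark the E-box variant CACATG, which was chosen after the windows had been read. The NR1D1 window is chr17:40100590-40100839 on the minus strand and the NR1D2 window chr3:23945036-23945285 on the plus strand.
NR1D1 window: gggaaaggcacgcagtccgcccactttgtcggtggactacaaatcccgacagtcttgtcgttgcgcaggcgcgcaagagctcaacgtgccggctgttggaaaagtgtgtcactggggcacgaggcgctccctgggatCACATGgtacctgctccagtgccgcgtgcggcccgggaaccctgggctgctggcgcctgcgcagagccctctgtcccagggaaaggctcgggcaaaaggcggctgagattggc
NR1D2 window: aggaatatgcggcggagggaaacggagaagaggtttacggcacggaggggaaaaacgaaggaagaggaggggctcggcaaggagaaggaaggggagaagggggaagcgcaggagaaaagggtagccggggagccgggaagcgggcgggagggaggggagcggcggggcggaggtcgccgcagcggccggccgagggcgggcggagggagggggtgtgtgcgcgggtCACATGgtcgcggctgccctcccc
CACATG lies 113 to 108 bases before the NR1D1 start and 24 to 19 bases before the NR1D2 start. Searched on both strands it was in 7.61% of the windows of 17196 genes. It was in 5 of the 33 receptors whose RefSeq start lay within 100 bases of the GENCODE start. Those 5 include both REV-ERB genes, from whose windows CACATG was chosen, so the receptor share cannot be compared with that of all genes. The canonical E-box CACGTG was in 7.62% of all windows and in neither REV-ERB window. Other E-box forms were not searched. The windows hold 20 CpG in NR1D1 and 26 in NR1D2, against a median of 18 over all genes.

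The testicular orphan receptors NR2C1 and NR2C2 differed little. NR2C1 had 546 and 459 counts in the LPS and control libraries of HT29, against 456 and 435 in those of HCT116, a log2 fold change of 0.36 ± 0.13 (edgeR adjusted p = 0.0154). That call was lost in edgeR with library size alone (adjusted p = 0.149), without the HT29 LPS library (adjusted p = 0.0812) and without the HCT116 control library (adjusted p = 0.136). NR2C2 had 197 and 132 counts in the LPS and control libraries of HT29, against 200 and 235 in those of HCT116, and its log2 fold change of -0.23 ± 0.20 missed the threshold (edgeR adjusted p = 0.305). Exons of MRPS25 on the other strand cover 60.5% of its exon bases.

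The COUP-TF group differed in make-up between the lines. NR2F1 (COUP-TFI, chr5:93583222-93594611, plus strand), an orphan receptor of neural and mesenchymal development, had 562 counts in HT29 LPS and 506 in HT29 control, against 3374 in HCT116 LPS and 3659 in HCT116 control. Its log2 fold change of -2.53 ± 0.08 (edgeR adjusted p = 7.01e-17) was about the same within the LPS libraries (-2.52) and within the control libraries (-2.52). NR2F2 (COUP-TFII), a regulator of vascular and mesenchymal development, differed by much less, with 3456 and 2959 counts in the LPS and control libraries of HT29, against 4625 and 5033 in those of HCT116 (log2 fold change -0.40 ± 0.06, edgeR adjusted p = 1.29e-05). NR2F6 was higher in HT29, with 6233 and 6253 counts in its LPS and control libraries, against 3363 and 3858 in those of HCT116 (log2 fold change 0.99 ± 0.07, edgeR adjusted p = 2.59e-11). Of the TPM of NR2F1 and NR2F2 together, NR2F1 held 19.6% in HT29 LPS and 20.4% in HT29 control, against 52.3% in HCT116 LPS and 52.2% in HCT116 control. NR2E3, a receptor of photoreceptor cells, had 2 counts or fewer in every library.

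Among the oestrogen-related receptors ESRRA was common to both lines and ESRRB was found in 1 line. ESRRA had 3347 and 3238 counts in the LPS and control libraries of HT29, against 2005 and 2178 in those of HCT116 (log2 fold change 0.85 ± 0.07, edgeR adjusted p = 4.74e-10). ESRRB (chr14:76310712-76501837, plus strand), a receptor known from embryonic stem cells and the inner ear, had 0 counts in both HT29 libraries, against 101 in HCT116 LPS and 90 in HCT116 control. It was at least 55.7-fold lower in HT29 against a floor of 3 counts over the 2 HT29 libraries (edgeR adjusted p = 1.87e-08). ESRRG showed the opposite pattern at the limit of detection, with 9 and 3 counts in the LPS and control libraries of HT29 and 0 in both HCT116 libraries. The oestrogen receptors were nearly absent from the counts, with 2 counts or fewer for ESR1 in every library, and for ESR2 15 and 5 counts in the LPS and control libraries of HT29, against 26 and 18 in those of HCT116.

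The 250 bases before the RefSeq start of ESRRB (chr14:76375887-76376136, plus strand, GRCh38.p14) are shown because the gene was counted in HCT116 alone. Neither E-box form is in them on either strand, and nor is AGGTCA, a core sequence that many nuclear receptors bind and that was in 10.5% of all windows, so they carry no capitals.
ESRRB window: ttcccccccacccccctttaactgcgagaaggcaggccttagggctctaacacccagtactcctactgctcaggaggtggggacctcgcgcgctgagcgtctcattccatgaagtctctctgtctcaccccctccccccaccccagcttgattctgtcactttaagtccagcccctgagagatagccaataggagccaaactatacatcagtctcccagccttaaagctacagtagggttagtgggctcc
The window holds 5 CpG, against a median of 18 over all genes, 17 over the 19 receptors with a mean of at least 1 CPM and a window, and 11.5 over the 14 below it.

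The NR4A receptors are immediate early genes without a ligand pocket. NR4A2 (NURR1) had 138 counts in HT29 LPS and 105 in HT29 control, against 639 in HCT116 LPS and 601 in HCT116 control. NR4A1 (NUR77) had 159 counts in HT29 LPS and 115 in HT29 control, against 380 in HCT116 LPS and 409 in HCT116 control. Both were lower in HT29, NR4A2 by a log2 fold change of -2.17 ± 0.16 (edgeR adjusted p = 1.36e-10) and NR4A1 by -1.35 ± 0.18 (edgeR adjusted p = 8.96e-07). NR4A3 (NOR1) had 4 and 0 counts in the LPS and control libraries of HT29, against 36 and 19 in those of HCT116, and stayed below the minimum for the test.

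NR5A2 (LRH-1, chr1:200027614-200177420, plus strand), a receptor of intestinal crypts, liver and pancreas that binds phospholipids, had 200 counts in HT29 LPS and 181 in HT29 control, against 55 in HCT116 LPS and 29 in HCT116 control. Its log2 fold change of 2.40 ± 0.29 (edgeR adjusted p = 2.56e-07) was the largest increase among tested receptors counted in both lines. It was 1.88 between the LPS libraries and 2.88 between the control libraries. The related NR5A1 (SF-1), known from adrenal gland and gonads, had 5 and 0 counts in the LPS and control libraries of HT29, against 25 and 10 in those of HCT116. NR6A1 (GCNF), a repressor of germ cells and early embryos, had 216 and 161 counts in the LPS and control libraries of HT29, against 453 and 474 in those of HCT116 (log2 fold change -1.12 ± 0.16, edgeR adjusted p = 2.82e-06).

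The second comparison asked what LPS did within each line. With 1 library per condition there is no test, and the log2 ratio of LPS over control was read with its 95% Clopper-Pearson interval, which covers counting error only and compares 2 libraries. In HT29, 1 of 25 measured receptors (RORA) lay above 0.58 and 0 below -0.58, against 3.5% and 2.7% of all 13201 measured genes. In HCT116, 3 of 26 (ESR2, NR4A3 and NR5A2) lay above 0.58 and 0 below -0.58, against 3.56% and 2.34% of all 14337 genes. All 4 were low in counts. RORA had 26 counts in HT29 LPS and 13 in HT29 control, a log2 ratio of 0.78 (interval -0.15 to 1.94). NR4A3 had 36 counts in HCT116 LPS and 19 in HCT116 control (0.97, interval 0.21 to 1.93), and ESR2 had 26 in HCT116 LPS and 18 in HCT116 control (0.60, interval -0.26 to 1.61). For NR5A2, with 55 counts in HCT116 LPS and 29 in HCT116 control, the log2 ratio was 1.00 (interval 0.38 to 1.75) in HCT116, and it was 0.01 in HT29 (interval -0.29 to 0.30).

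**Figure D3:**
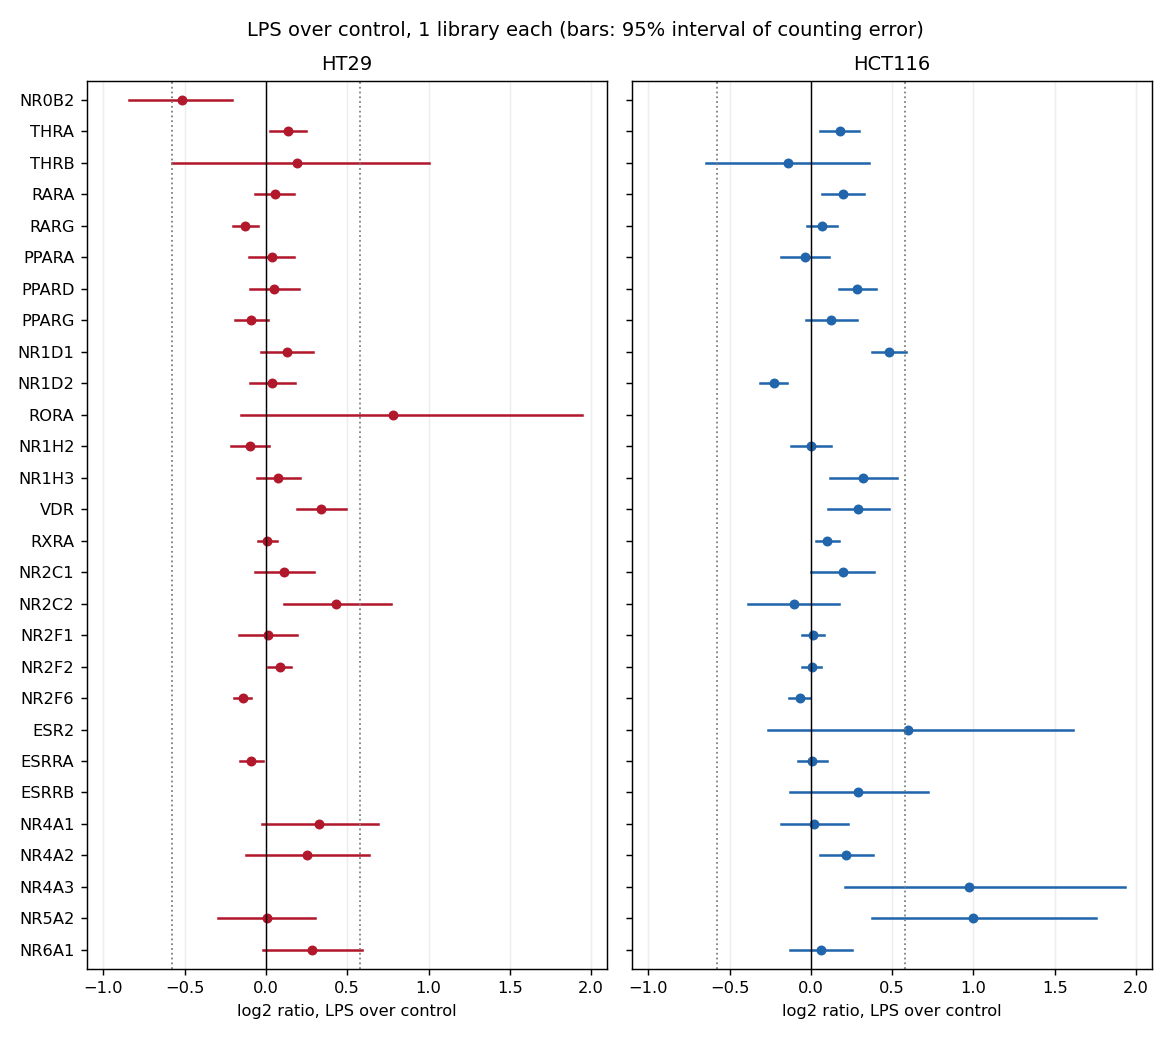
Log2 ratio of LPS over control for receptors that averaged 1 CPM or more in that line, HT29 on the left and HCT116 on the right, with 95% intervals of counting error and dotted lines at -0.58 and 0.58. VDR lies above 0 in both panels (0.34 and 0.29), and NR1D1 lies at 0.13 in HT29 and 0.48 in HCT116.

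Counting intervals of the ratio, which narrow with depth, were also read against those of all genes. Intervals lay above 0 for 4 receptors in HT29 (15.9% of all measured genes) and below 0 for 4 (18.5% of all genes). In HCT116 they lay above 0 for 11 receptors (17% of all genes) and below 0 for 2 (18.2% of all genes). The receptors above 0 in HCT116 were THRA, RARA, PPARD, NR1D1, NR1H3, VDR, RXRA, NR2C1, NR4A2, NR4A3 and NR5A2. Of 23 receptors measured in both lines, THRA and VDR had intervals above 0 in both (4.41% of all genes measured in both) and NR2F6 had intervals below 0 in both (6.34% of all genes).

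VDR had log2 ratios of 0.34 in HT29 (interval 0.19 to 0.49) and 0.29 in HCT116 (interval 0.10 to 0.48), and the count was higher with LPS in each line. THRA had 0.14 in HT29 (interval 0.03 to 0.25) and 0.18 in HCT116 (interval 0.06 to 0.30). For NR2F6 the ratios were -0.14 in HT29 (interval -0.19 to -0.09) and -0.07 in HCT116 (interval -0.14 to -0.003). Each of these shifts was smaller than the difference of the same gene between the lines.

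The REV-ERB genes parted in HCT116. NR1D1 had 1620 counts in HCT116 LPS and 1269 in HCT116 control, a log2 ratio of 0.48 (interval 0.37 to 0.59), while NR1D2 had 2030 in HCT116 LPS and 2600 in HCT116 control, a log2 ratio of -0.23 (interval -0.31 to -0.14). NR1D1 made up 63.7% of the REV-ERB TPM in HCT116 LPS and 51.8% in HCT116 control. In HT29 the log2 ratios were 0.13 for NR1D1 (interval -0.03 to 0.29) and 0.04 for NR1D2 (interval -0.10 to 0.18), and these line-by-LPS differences were not tested. NR0B2 had the lowest ratio of the measured receptors, -0.52 in HT29 (interval -0.84 to -0.21), from 147 counts with LPS and 192 in control.

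Over both lines, with the line as a block, edgeR called 0 of the 25 receptors and 0.22% of all genes (32 of 14516). DESeq2 called 0 receptors, but gave no adjusted p for most of them, NR1D1 and VDR included. At an unadjusted p under 0.05 there were 2 receptors in edgeR, against 1101 of all 14516 genes. Those 2 were NR1D1, with a log2 fold change of 0.32 ± 0.10 (unadjusted p = 0.00375, edgeR adjusted p = 0.308), and VDR, with 0.32 ± 0.11 (unadjusted p = 0.0115, edgeR adjusted p = 0.433). Both had positive ratios in both lines. Over the edgeR settings the adjusted p of NR1D1 ran from 0.0409 to 1, and it passed the threshold in edgeR only where genes needed a mean of at least 5 CPM.

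The median log2 ratio of the measured receptors was 0.05 in HT29 and 0.11 in HCT116, against -0.01 and -0.003 over all measured genes, and 76% were above 0 in HT29 and 80.8% in HCT116, against 48.2% and 49.5% of all genes. The difference between receptors and other genes was not tested. The receptor genes were longer than most (median 5793 exon bases in HT29 against 5032 over all genes) and richer in GC (median 54.8% in HCT116 against 48.7%). Over 14324 genes the HCT116 ratios increased weakly with GC (Spearman's rho 0.23), and over 13201 genes those of HT29 did so with length (rho 0.17), both across genes that share the same 2 libraries. With both trends removed, an alternative chosen after the data were seen, the receptor medians were 0.06 in HT29 and 0.09 in HCT116. The part of length and GC content in the ratios was not tested.

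Genes that supply, bind or answer to the ligands of these receptors were taken from lists of known pathway genes. In the lists below, the counts of calls stand against 38% higher and 38.6% lower over all genes tested. Of 11 retinoid enzymes and binding proteins tested, 7 were higher and 3 lower in HT29. ALDH1A1, which makes retinoic acid from retinal, had 18456 counts in HT29 LPS and 17957 in HT29 control, and 0 in both HCT116 libraries, at least 13877-fold higher in HT29 (edgeR adjusted p = 1.95e-21). ALDH1A3, an enzyme of the same step, had 500 and 481 counts in the LPS and control libraries of HT29, against 6580 and 7261 in those of HCT116 (log2 fold change -3.62 ± 0.08, edgeR adjusted p = 2.44e-19). The lines thus differed in which of these 2 enzymes had more counts. CYP26B1, which degrades retinoic acid, had 17 and 0 counts in the LPS and control libraries of HT29, against 834 and 919 in those of HCT116 (log2 fold change -6.50 ± 0.34, edgeR adjusted p = 7.15e-13). The log2 ratio of CYP26B1 was -5.40 between the LPS libraries and -8.69 between the control libraries, where HT29 had 0 counts, so its size rests on few HT29 counts.

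**Figure D4:**
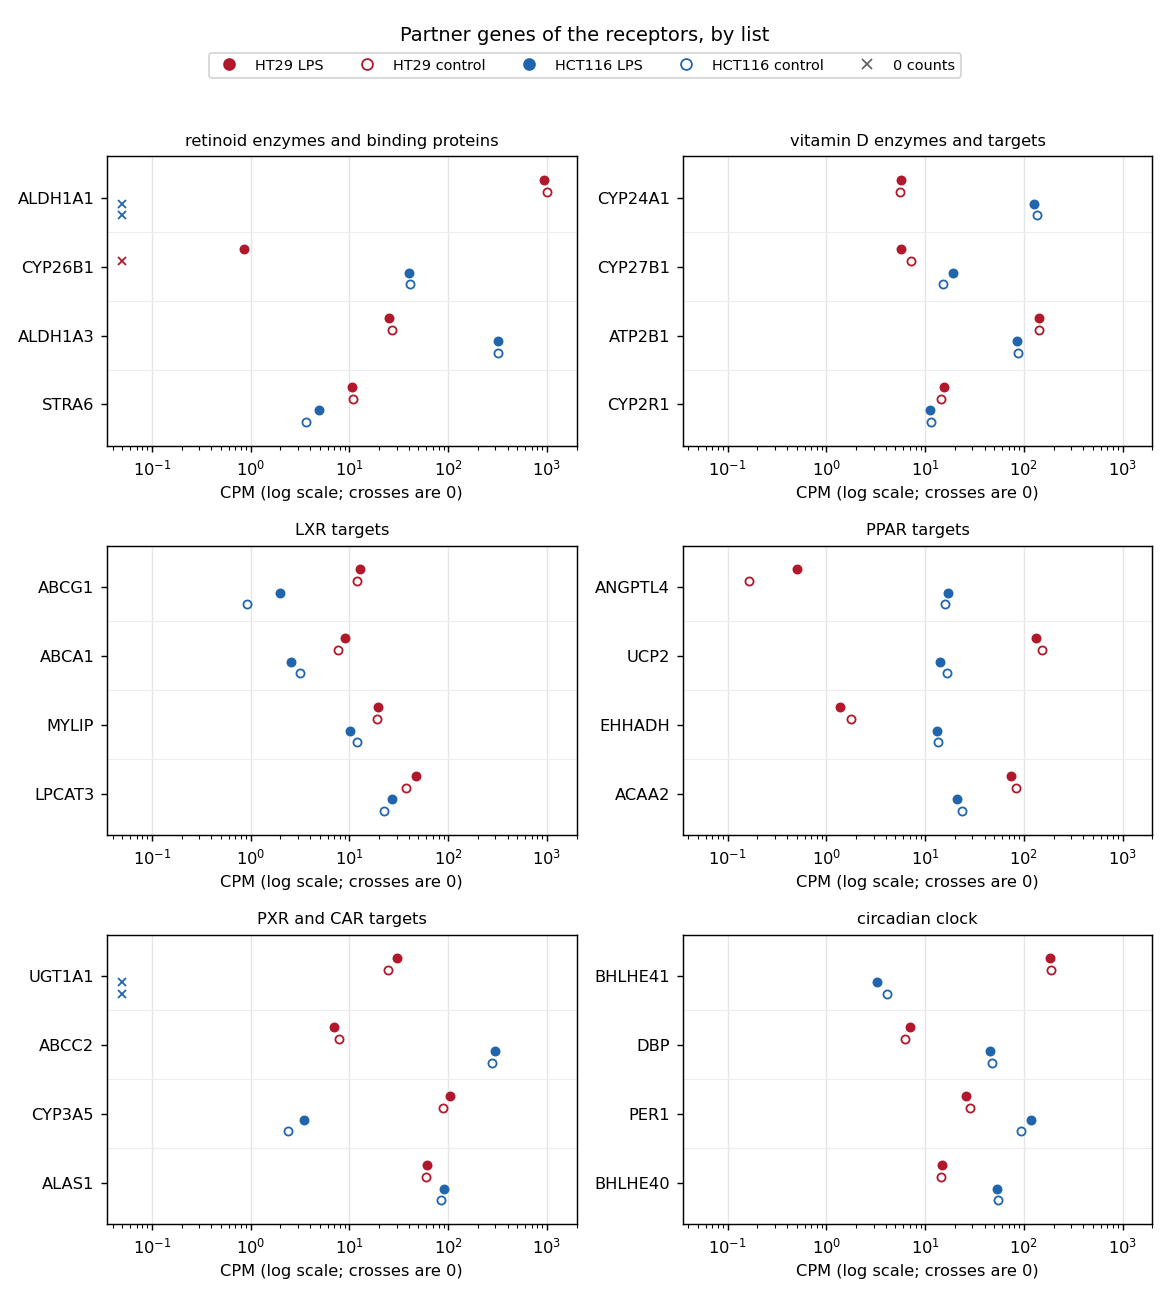
CPM (log axis) of the genes with the largest line difference in 6 pathway lists, with HT29 in red, HCT116 in blue, LPS libraries filled and control libraries open, and crosses for 0. ALDH1A1 and UGT1A1 have no HCT116 point above 0, and CYP26B1 is at 0 in HT29 control.

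For vitamin D, all 5 tested genes were called in edgeR, 3 higher and 2 lower in HT29, and 3 were called in DESeq2. There CYP2R1 (DESeq2 adjusted p = 0.115) and TRPV6 (DESeq2 adjusted p = 0.127), named after its values were seen, lost the call. TRPV6 had 42 and 31 counts in the LPS and control libraries of HT29, against 8 and 25 in those of HCT116. Its transcript also aligned to an alternate contig at 99.64% identity, so these counts may not hold all its reads. CYP24A1, the enzyme that degrades the hormone and a direct VDR target, had 113 and 100 counts in the LPS and control libraries of HT29, against 2643 and 3036 in those of HCT116 (log2 fold change -4.54 ± 0.10, edgeR adjusted p = 4.6e-19). VDR was higher and CYP24A1 lower in HT29. CYP27B1, which activates vitamin D, was also lower in HT29, with 113 and 131 counts in its LPS and control libraries, against 394 and 343 in those of HCT116.

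Of 8 LXR targets tested, 5 were higher and 2 lower in HT29. The cholesterol exporter ABCG1 had 254 and 214 counts in the LPS and control libraries of HT29, against 41 and 21 in those of HCT116 (log2 fold change 3.12 ± 0.28, edgeR adjusted p = 3.11e-09), and ABCA1, another exporter, differed in the same direction (1.54 ± 0.27). NR1H3 was likewise higher in HT29. Of 16 PPAR targets, 4 were higher and 10 lower. UCP2, a carrier of the mitochondrial inner membrane, had 2624 and 2774 counts in the LPS and control libraries of HT29, against 290 and 375 in those of HCT116 (log2 fold change 3.22 ± 0.08), while the lipase inhibitor ANGPTL4 had 10 and 3 counts in HT29 LPS and control, against 352 and 360 in HCT116 LPS and control. PPAR targets thus ran in both directions.

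FXR targets had 3 tested genes, 1 higher and 1 lower in HT29, and the gut hormone FGF19, known as an FXR target, was not called (log2 fold change 0.10 ± 0.10, edgeR adjusted p = 0.363). It had 874 and 729 counts in the LPS and control libraries of HT29, against 857 and 847 in those of HCT116, where FXR itself was at 0. All 6 tested PXR and CAR targets separated the lines, 3 in each direction. CYP3A5, a drug-metabolising enzyme, had 2049 and 1614 counts in the LPS and control libraries of HT29, against 71 and 54 in those of HCT116, and the bile pigment exporter ABCC2 had 140 and 141 counts in HT29 LPS and control, against 6137 and 6250 in HCT116 LPS and control. UGT1A1, which conjugates bilirubin and shares its later exons with the other genes of the UGT1A cluster, had 596 and 447 counts in HT29 LPS and control and 0 in both HCT116 libraries.

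Of 14 clock genes tested, 1 was higher and 9 were lower in HT29. The single higher gene, BHLHE41 (DEC2), a repressor of CLOCK and BMAL1, had 3651 and 3418 counts in the LPS and control libraries of HT29, against 68 and 93 in those of HCT116 (log2 fold change 5.65 ± 0.10, edgeR adjusted p = 2.86e-20). DBP, an output gene with E-boxes, had 138 and 112 counts in HT29 LPS and control, against 934 and 1083 in HCT116 LPS and control. The period gene PER1 had 518 and 510 counts in HT29 LPS and control, against 2456 and 2104 in HCT116 LPS and control. DBP and PER1 thus differed in the same direction as NR1D1 and NR1D2. With LPS, PER1 had a log2 ratio of 0.35 in HCT116 and -0.12 in HT29.

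The corepressors that receptors share were higher in HT29 for 4 of 9 genes and lower for 3. NCOR1, which binds unliganded receptors, had 2749 and 2334 counts in the LPS and control libraries of HT29, against 1095 and 1134 in those of HCT116 (log2 fold change 1.38 ± 0.07, edgeR adjusted p = 4.8e-13). Of 14 coactivators tested, 3 were higher and 7 lower in HT29, led by NCOA1 with 232 and 185 counts in HT29 LPS and control, against 592 in each HCT116 library. All 9 immediate early genes tested were called in edgeR, 1 higher (JUN, log2 fold change 2.67 ± 0.07) and 8 lower in HT29, the direction of NR4A1 and NR4A2. DESeq2 called 8 of them, without FOSB (adjusted p = 0.150). All 3 tested genes of the thyroid hormone list were lower in HT29, among them the corepressor HR, with 194 and 178 counts in HT29 LPS and control, against 3006 and 3224 in HCT116 LPS and control (log2 fold change -3.87 ± 0.09). The LPS test over both lines called 0 genes in each of these lists in edgeR. DESeq2 called 1 coactivator and 0 genes of the other pathway lists. It gave no adjusted p for some tested genes of these lists, NCOA1 and ABCG1 among them.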

How the data were processed

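Per the submitters' processing notes and the methods of the study, reads were trimmed (cutadapt 1.9, Trimmomatic 0.39), mapped to hg38 by HISAT2 2.1.0 and assigned to GENCODE genes by featureCounts 2.0.1. The deposited values are raw counts per gene with a gene length, for 4 libraries of 19105058 to 21268959 counts. The library kit does not mark strand. Whether strand or multi-mapped reads were counted, and from which annotation release, is not given in the sources. No column was left unassigned to a library.

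The 41 receptors and the pathway lists were chosen with earlier results of these data known. Symbols came from GENCODE 44. Counts were normalized by TMM in edgeR 4.0.16 (R 4.3.3). Log2 ratios used a prior count of 2 in genes that averaged 1 CPM or more in the line, with 95% Clopper-Pearson intervals. The line and LPS comparisons used edgeR's quasi-likelihood test with the other factor as a block, and Benjamini-Hochberg adjustment at 0.05 over 14516 genes. DESeq2 1.42.0 was an alternative. Genes at 0 were compared through a floor of 3 counts over both libraries of the line. Copies were sought with minimap2. Sequences are RefSeq windows (GRCh38.p14), which matched 37 of the 41 genes.

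Every receptor may be named. From each pathway list the rule names up to 4 genes by line difference and up to 2 by LPS ratio, with a mean of at least 5 CPM. Some genes of these lists are not reported here.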

Additional observations from a re-analysis of the deposited data

How the results depend on the processing

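Without the filter on low counts, 6 receptors lay above 0.58 and 2 below -0.58 in HT29 (4967 and 3904 of all genes), and 7 above and 1 below in HCT116 (3884 and 3674 of all genes). With a minimum of 5 CPM, 0 receptors lay above 0.58 in either line, with 60 and 73 of all genes above and below in HT29 and 73 and 42 in HCT116. With a threshold of 1 there were again 0 receptors above in either line, with 136 and 83 genes in HT29 and 119 and 89 in HCT116. The LPS test over both lines called 18 genes higher and 14 lower. It called 44 and 40 with DESeq2, 6 and 8 with DESeq2 size factors, 58 and 45 without the filter, 78 and 58 with a minimum of 5 CPM (1 receptor higher, NR1D1), and 0 and 0 without the block. With a log2 fold change beyond 1 in the line comparison, 4 receptors and 2415 genes were higher and 3384 genes lower in HT29. Of the line results of single receptors under the alternatives, 289 were counted as unchanged and 8 lost the call (THRB, RARA, PPARA, NR1H2 and NR2C1). No called value reversed. The 289 include ratios within the control libraries and within the LPS libraries, which have no p-value and so no threshold to keep. For RARA, for example, 10 of the 12 alternatives had a test. NR2C2, which was not called and is among the 289 under every alternative, changed sign between the LPS libraries alone (0.04, against -0.23 in the fit). The cause was not tested for any of these. No pairing by replicate number was possible, because that number is 1 for all 4 libraries and so pairs none of them. The line as a block already sets LPS against control within each line. Receptors under 1 CPM rest on few counts and were not tested.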
